A study of Mus musculus with 8 samples.

Results

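The genes described here are 38 endothelial genes, among them the receptors through which blood vessels receive growth signals. They were taken by symbol from the deposited table of raw counts, and all 38 were found among its 48709 genes. The list was divided by the vessel in which each gene is best known, into 23 general endothelial genes, 8 capillary genes, 3 arterial genes, 1 gene of veins and large vessels and 3 lymphatic genes. The RNA came from 8 lung tumors of *K* mice, which are of a mixed B6J/129S4vJae background. The lentivirus LentiCRISPRv2Cre, which carries Cre recombinase, Cas9 and a guide RNA, was given into the trachea to start the tumors. The 4 *K-Ctrl* tumors received a control guide RNA against *GFP* and the 4 *K-Setd2KO* tumors a guide RNA against *Setd2*, which encodes an enzyme that trimethylates lysine 36 of histone H3, so both groups share Cre and Cas9. Mouse ages and times after infection were not used here. The labels call the tissue lung adenocarcinoma, the study describes low-grade tumors matched for stage, and 1 protocol text in the labels speaks of cell lines, which was not resolved. Nothing says that the tumors came from separate mice, so p-values measure only the spread between these tumors.

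Blood vessels are lined by endothelial cells. VEGF ligands act on the receptor tyrosine kinases KDR and FLT1 of blood vessels and on FLT4 of lymphatic vessels, while angiopoietins act on TEK and circulating BMP ligands act on ACVRL1 with endoglin, and together these receptors set sprouting, quiescence and leakiness. The lung has the densest capillary bed of the body, in which *Car4*-positive capillary cells lie against the gas-exchange epithelium beside general capillary cells marked by *Gpihbp1*.

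Total counts ran from 5806599 to 21290402 per tumor, so that 3 counts correspond to between 0.141 and 0.517 CPM, the count scaled to library size. In each tumor, *Cdh5* and *Pecam1*, defining endothelial genes, were counted at least 280 and 385 times, so endothelial RNA was present throughout. The lowest count of any member was 2 for *Prox1*, in *K-Setd2KO* replicate 4, which is under the limit of 3 counts. *K-Ctrl* replicate 1 was the highest of the 8 tumors for 35 of the 38 members, and *K-Setd2KO* replicate 4, the shallowest library, was the lowest for 27. By *Xist* and 4 Y-linked genes, *K-Ctrl* replicate 2 and *K-Setd2KO* replicates 1, 2 and 4 were female and the other 4 tumors male, so the sexes were not balanced between the groups. *Setd2* itself was at 152, 137, 132 and 137 CPM in *K-Ctrl* replicates 1 to 4 and 145, 121, 124 and 152 CPM in *K-Setd2KO* replicates 1 to 4, ranges that overlap. A guide RNA can disrupt a gene without removing its transcript, so this level does not check the knockout.

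All 38 members were fitted lower in *K-Setd2KO*, and 16 of them passed the test (edgeR quasi-likelihood, adjusted p under 0.05 over 14929 genes), all 16 lower. Over all genes tested, 47.3% were fitted lower, 7.74% were called lower and 4.97% were called higher. The median log2 fold change of the members was -1.39, with a range from -4.69 to -0.01, beside a median of 0.03 over all genes tested. For 21 members the CPM of the 4 *K-Setd2KO* tumors lay wholly under that of the 4 *K-Ctrl* tumors, as it did for 11.2% of all genes tested, and for 0 members it lay wholly above, as it did for 9.09%. In RNA of whole tumors, fewer endothelial cells and less RNA per endothelial cell cannot be told apart.

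**Figure D1:**
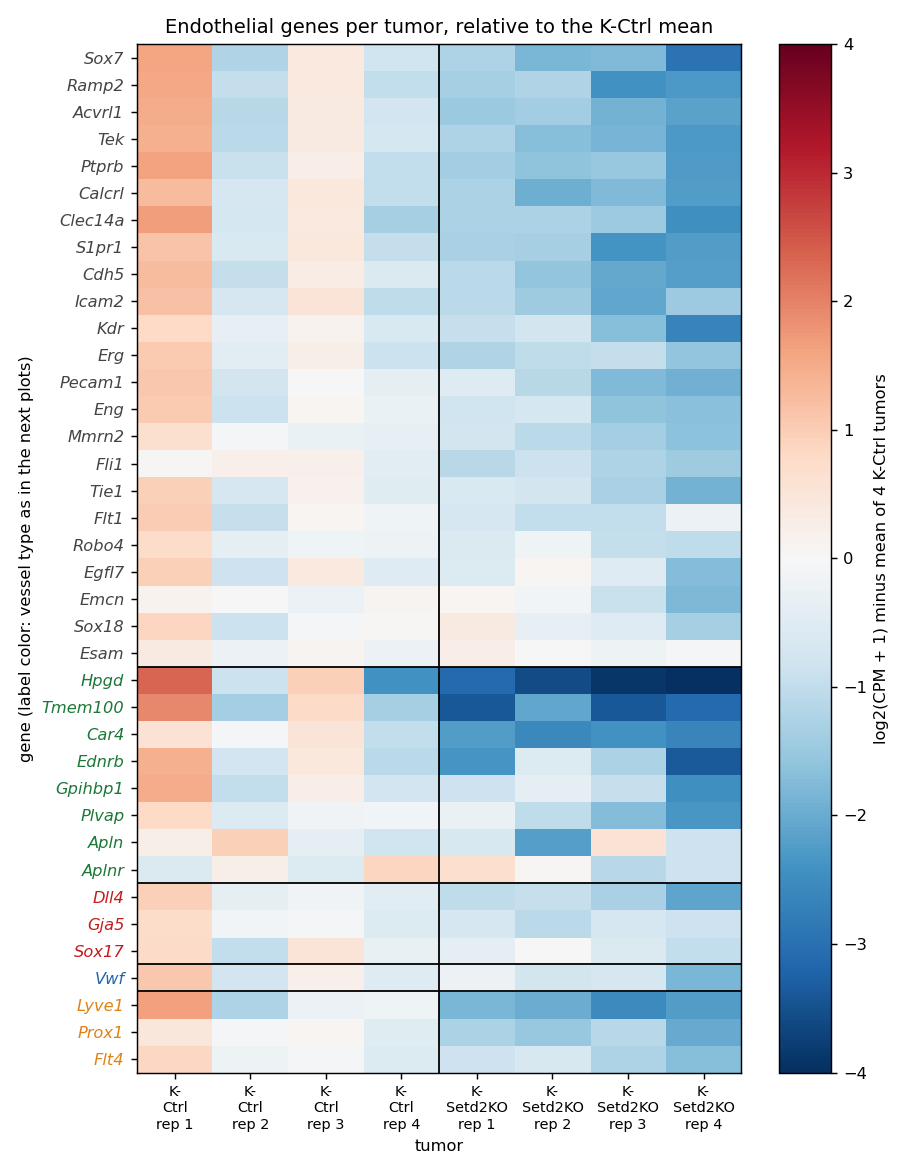
Level of the 38 endothelial genes (rows, label color by vessel type, black lines between types) in each of the 8 tumors (columns), as log2(CPM + 1) minus the mean of the 4 *K-Ctrl* tumors. Blue is lower and red higher than that mean, and the column of *K-Ctrl* replicate 1 is the reddest, being the highest tumor for 35 of the 38 genes.

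The general genes held 10 of the 16 calls, out of 23 genes, with a median log2 fold change of -1.39. Their summed level was 5137, 1341, 2629 and 1439 CPM in *K-Ctrl* replicates 1 to 4 and 1177, 989.5, 774 and 673 CPM in *K-Setd2KO* replicates 1 to 4. The groups did not overlap, but *K-Ctrl* replicates 2 and 4 lay close above *K-Setd2KO* replicate 1. The mean was 2636 ± 1767 CPM over the *K-Ctrl* tumors against 903 ± 225 CPM over the *K-Setd2KO* tumors (SD, n = 4 each), 2.92-fold apart with all tumors and 2.00-fold apart without *K-Ctrl* replicate 1. Among the capillary genes, 3 of 8 were called lower (*Car4*, *Hpgd* and *Tmem100*), with a median of -1.65. Of the arterial genes, *Dll4* was called, 1 of 3, with a median of -0.96. *Lyve1* and *Prox1* were the 2 called of 3 lymphatic genes, with a median of -2.12. The large-vessel gene *Vwf* was not called. Without *K-Ctrl* replicate 1, the general, capillary, arterial and lymphatic genes held 2, 3, 0 and 1 calls, with medians of -1.11, -1.07, -0.63 and -1.69, and without *K-Setd2KO* replicate 3 they held 1, 1, 0 and 1 calls.

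The calls depended on single tumors to an unequal degree. Without *K-Ctrl* replicate 1, 6 members were called and the members' median was -1.03, while 4.46% of all genes tested were called lower. The count of members was 17 and 21 without *K-Ctrl* replicates 2 and 4, and 5 without replicate 3, beside 5.15%, 8.31% and 3.60% of all genes called lower in these fits. It was 11, 9, 3 and 5 without *K-Setd2KO* replicates 1 to 4, beside 6.03%, 7.97%, 4.14% and 5.67% of all genes. *Car4* and *Fli1* were called in each of the 8 fits that left out 1 tumor and in every other fit that was run. *Hpgd* lost its call without *K-Setd2KO* replicate 3 (adjusted p = 0.0553), and *Mmrn2* lost it without that tumor (0.0659) or *K-Ctrl* replicate 1 (0.0511). *Lyve1* lost it without *K-Setd2KO* replicate 3 (adjusted p = 0.0668) or 4 (0.0559), and *Prox1* without *K-Ctrl* replicate 1 (0.0548) or 3 (0.0544). The other 10 called members were called in 1 to 4 of these 8 fits. Each of those 10 lost its call without *K-Ctrl* replicate 3, without *K-Setd2KO* replicate 3 and without *K-Setd2KO* replicate 4, 8 of them also without *K-Ctrl* replicate 1, and their highest adjusted p ran from 0.0673 (*Tmem100*) to 0.108 (*Icam2*).

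The comparison was repeated within the tumors of each sex. Among male tumors, the summed general level was 3068 CPM over 3 *K-Ctrl* tumors and 774 CPM in the single *K-Setd2KO* tumor, a ratio of 3.96. With *K-Ctrl* replicate 1 left out it was 2034 CPM over 2 *K-Ctrl* tumors, a ratio of 2.63. Among female tumors it was 1341 CPM in the single *K-Ctrl* tumor and 946 CPM over 3 *K-Setd2KO* tumors, a ratio of 1.42. The *K-Setd2KO* tumor lay below each *K-Ctrl* tumor for 36 of 38 members in males and above each for 1, beside 35.9% and 37.4% of all genes tested. In females all *K-Setd2KO* tumors lay below the *K-Ctrl* tumor for 23 of 38 members and above it for 2, beside 31.5% and 29.1% of all genes. The median difference of log2(CPM + 1) over the members was -1.51 in males, -1.13 in males without *K-Ctrl* replicate 1 and -0.72 in females, and the difference between the sexes was not tested. With sex as a term in the fit, 3 members kept their call, *Fli1*, *Car4* and *Prox1*, beside 5.25% of all genes called lower against 7.74% without the term. The members' median log2 fold change was -1.32 in that fit and -1.39 without the term.

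**Figure D2:**
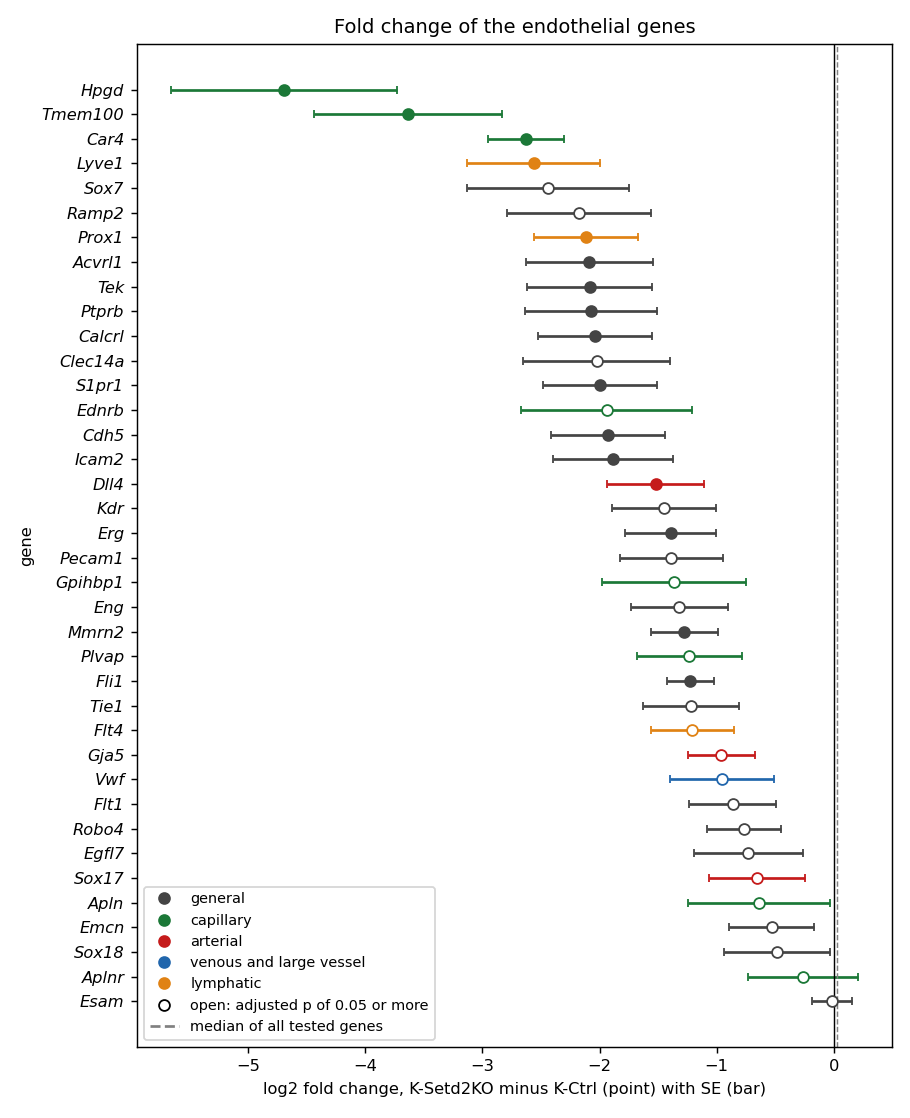
Log2 fold change of each of the 38 genes, *K-Setd2KO* minus *K-Ctrl* (point), with its standard error (bar), sorted by size and colored by vessel type. Filled points passed the test, the dashed line marks the median of all genes tested at 0.03, and every point lies under 0, from *Hpgd* at -4.69 to *Esam* at -0.01.

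Per length of transcript, the members spanned a wide range of levels. In *K-Ctrl* the highest mean RPKM, the CPM per kilobase of exon, was that of *Hpgd* at 123 ± 141, followed by *Tmem100* at 81.9 ± 84.1, *Car4* at 81.2 ± 34.7 and *Calcrl* at 80.1 ± 57.4 (SD, n = 4 each). The gap between neighbours in this order was smaller than their SD. Without *K-Ctrl* replicate 1 the order changed, with *Car4* highest at 71.4 ± 35.1 RPKM, then *Hpgd* at 56.4 ± 59.1, *Calcrl* at 54.0 ± 29.4 and *Tmem100* at 43.2 ± 39.8 (SD, n = 3 each). In *K-Setd2KO* the order was another, with *Esam* highest at 33.1 ± 4.76 RPKM, then *Plvap* at 22.5 ± 14.0 and *Calcrl* at 19.5 ± 5.74, and *Hpgd* at 4.67 ± 1.59 RPKM. *Prox1* had the lowest mean level in both groups, 0.551 ± 0.175 and 0.122 ± 0.0629 RPKM.

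The VEGF receptors did not pass the edgeR test. *Kdr* and *Flt4* were called with DESeq2 and with a replicate block, which were among the alternatives run, and *Flt1* was called in none of them. *Flt1*, a high-affinity VEGF receptor that also acts as a decoy, was at 326, 85.2, 170.5 and 145 CPM in *K-Ctrl* replicates 1 to 4 and 101, 80.7, 80.7 and 137 CPM in *K-Setd2KO* replicates 1 to 4. These ranges overlapped, with *K-Setd2KO* replicate 4 the highest of its group, and the log2 fold change was -0.86 ± 0.37 (SE, adjusted p = 0.159), and -0.42 without *K-Ctrl* replicate 1. *Flt4* (chromosome 11, 49609263 to 49652739, plus strand), the lymphatic receptor for VEGF-C and VEGF-D, was at 41.6, 19.4, 21.7 and 15.1 CPM for *K-Ctrl* and 12.5, 14.2, 9.02 and 6.32 CPM for *K-Setd2KO*. Its groups did not overlap, and its log2 fold change of -1.21 ± 0.35 (SE, adjusted p = 0.0547) did not pass. *Kdr*, the main signaling receptor for VEGF-A, ran from 64.3 to 173 CPM in *K-Ctrl* and from 14.7 to 58.5 CPM in *K-Setd2KO*, without overlap, at a log2 fold change of -1.45 ± 0.45 (SE, adjusted p = 0.0645).

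Along the angiopoietin receptor pathway, 2 of 3 genes fell. *Tek* (chromosome 4, 94739289 to 94874976, plus strand) encodes the receptor TIE2, and it was at 258, 44.9, 124 and 59.0 CPM in *K-Ctrl* replicates 1 to 4 and 40.3, 28.8, 26.0 and 19.0 CPM in *K-Setd2KO* replicates 1 to 4. The lowest *K-Ctrl* tumor, replicate 2, stood just above the highest *K-Setd2KO* tumor, replicate 1. *Tek* fell with a log2 fold change of -2.08 ± 0.53 (SE, adjusted p = 0.0361), and of -1.41 without *K-Ctrl* replicate 1 (adjusted p = 0.0630). *Ptprb* (chromosome 10, 116301374 to 116389538, plus strand), the receptor phosphatase VE-PTP that restrains TIE2, was at 878, 155, 351 and 147 CPM in *K-Ctrl* and 109.8, 93.7, 101 and 59.6 CPM across *K-Setd2KO*. The groups were apart, and *Ptprb* fell with a log2 fold change of -2.07 ± 0.56 (SE, adjusted p = 0.0443), and of -1.26 without *K-Ctrl* replicate 1 (adjusted p = 0.0659). *Tie1*, the partner receptor of TIE2, was at 55.9 ± 31.0 CPM over the *K-Ctrl* tumors against 23.9 ± 9.11 CPM over the *K-Setd2KO* tumors (SD, n = 4 each) and was not called (log2 fold change -1.22 ± 0.41 SE, adjusted p = 0.0820), with -0.79 without *K-Ctrl* replicate 1.

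Of the ALK1 pathway, 2 of 3 genes fell. *Tmem100* (chromosome 11, 90030348 to 90036508, plus strand), a small membrane protein induced by ALK1 signaling, was at 350.3, 35.5, 157 and 35.8 CPM in *K-Ctrl* replicates 1 to 4 and 7.79, 21.2, 7.83 and 9.73 CPM in *K-Setd2KO* replicates 1 to 4. *K-Ctrl* replicates 1 and 3 were far above replicates 2 and 4, and *K-Setd2KO* replicate 2 was above the rest of its group, but the groups did not overlap. The log2 fold change was -3.63 ± 0.81 (SE, adjusted p = 0.0230), and -2.71 without *K-Ctrl* replicate 1 (adjusted p = 0.0444). *Acvrl1*, which encodes ALK1 itself, was at 147 ± 124 CPM over the *K-Ctrl* tumors against 34.5 ± 8.50 CPM over the *K-Setd2KO* tumors (SD, n = 4 each), and fell with a log2 fold change of -2.09 ± 0.54 (SE, adjusted p = 0.0386). This became -1.36 without *K-Ctrl* replicate 1 (adjusted p = 0.0625). Endoglin (*Eng*), the ALK1 co-receptor, was not called (log2 fold change -1.32 ± 0.41 SE, adjusted p = 0.0688), with -0.84 without that tumor. *Acvrl1* and *Eng* each share exonic positions with a gene on the opposite strand, and whether counting used the strand is not given in the sources used here.

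Receptors for peptides and lipids gave 2 calls among 6 genes. *Calcrl* (chromosome 2, 84330626 to 84425411, minus strand), which forms the adrenomedullin receptor with RAMP2, was at 773, 201, 428 and 162 CPM in *K-Ctrl* replicates 1 to 4 and 134, 83.5, 94.6 and 68.5 CPM in *K-Setd2KO* replicates 1 to 4. Every *K-Ctrl* tumor was above every *K-Setd2KO* tumor, and *Calcrl* fell with a log2 fold change of -2.04 ± 0.48 (SE, adjusted p = 0.0287), and of -1.47 without *K-Ctrl* replicate 1 (adjusted p = 0.0482). *S1pr1*, the sphingosine 1-phosphate receptor that holds the vessel barrier closed, also fell, from 126 ± 82.5 CPM to 31.5 ± 12.7 CPM (log2 fold change -1.99 ± 0.49 SE, adjusted p = 0.0318), with -1.50 and an adjusted p of 0.0664 without *K-Ctrl* replicate 1. *Ramp2*, the partner of *Calcrl*, did not pass (log2 fold change -2.17 ± 0.61 SE, adjusted p = 0.0501), though its groups did not overlap, and it shares exonic positions with *Vps25* on its own strand. Its value was -1.41 with *K-Ctrl* replicate 1 left out. The endothelin receptor gene *Ednrb* gave -1.94 ± 0.73 (SE, adjusted p = 0.114), with groups that overlapped, and -1.26 with that tumor left out.

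The apelin pair stood apart from the other members, and both genes were looked at after their values were seen. *Apln*, the apelin ligand made by tip cells, was at 24.6, 41.3, 15.8 and 11.5 CPM in *K-Ctrl* replicates 1 to 4 and 13.0, 3.74, 31.9 and 11.3 CPM in *K-Setd2KO* replicates 1 to 4. *Aplnr*, its receptor, was at 13.9, 25.0, 14.2 and 39.0 CPM for *K-Ctrl* and 33.8, 21.5, 9.12 and 11.4 CPM for *K-Setd2KO*. The groups overlapped for both genes, and *K-Ctrl* replicate 1 was not the highest tumor for either. Log2 fold changes were -0.64 ± 0.60 (SE, adjusted p = 0.517) for *Apln* and -0.26 ± 0.47 (SE, adjusted p = 0.747) for *Aplnr*, and that of *Aplnr* turned to 0.11 without *K-Ctrl* replicate 4 and was -0.44 without replicate 1.

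The arterial genes and the guidance receptor *Robo4* gave 1 call among 4. *Dll4* (chromosome 2, 119325784 to 119335962, plus strand), the Notch ligand of arteries and sprouting tips, was at 32.0, 11.8, 14.4 and 11.5 CPM in *K-Ctrl* replicates 1 to 4 and 7.38, 7.86, 5.80 and 2.90 CPM in *K-Setd2KO* replicates 1 to 4. The 4 *K-Setd2KO* tumors were below the 4 *K-Ctrl* tumors, and *Dll4* fell with a log2 fold change of -1.52 ± 0.41 (SE, adjusted p = 0.0428), and of -1.05 without *K-Ctrl* replicate 1 (adjusted p = 0.0963). *Gja5*, the arterial gap junction protein connexin 40, was at 26.2, 14.2, 14.4 and 10.2 CPM in *K-Ctrl* and 9.18, 6.80, 9.30 and 8.20 CPM across *K-Setd2KO*. Its groups did not overlap and its log2 fold change was -0.96 ± 0.29 (SE, adjusted p = 0.0585), short of the threshold. *Sox17*, a transcription factor of arterial endothelium, was at 21.6, 5.78, 18.3 and 9.80 CPM for *K-Ctrl* and 9.18, 12.2, 7.92 and 5.81 CPM for *K-Setd2KO*, with groups that overlapped (log2 fold change -0.66 ± 0.41 SE, adjusted p = 0.313). *Robo4* was not called (log2 fold change -0.76 ± 0.31 SE, adjusted p = 0.140). With *K-Ctrl* replicate 1 left out, *Gja5*, *Sox17* and *Robo4* were at -0.63, -0.36 and -0.44. *Dll4*, *Gja5* and *Sox17* each share exonic positions with a gene on the opposite strand.

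Adhesion and surface genes gave 3 calls among 7. *Cdh5* (chromosome 8, 104101625 to 104144511, plus strand), the VE-cadherin of endothelial junctions, was at 535, 115, 273 and 148 CPM in *K-Ctrl* replicates 1 to 4 and 106, 73.6, 53.9 and 47.8 CPM in *K-Setd2KO* replicates 1 to 4. *K-Ctrl* replicate 2 was close to *K-Setd2KO* replicate 1, and the groups did not overlap. The log2 fold change was -1.93 ± 0.49 (SE, adjusted p = 0.0350), and -1.35 without *K-Ctrl* replicate 1 (adjusted p = 0.0629). *Mmrn2* (chromosome 14, 34375504 to 34404287, plus strand), a matrix protein bound to endothelial cells, was at 40.3, 24.5, 21.2 and 20.3 CPM in *K-Ctrl* and 15.0, 11.7, 9.30 and 7.51 CPM across *K-Setd2KO*. It fell with a log2 fold change of -1.28 ± 0.29 (SE, adjusted p = 0.0229), the groups being apart. *Icam2*, an adhesion molecule that leukocytes also make, fell as well (log2 fold change -1.88 ± 0.51 SE, adjusted p = 0.0438), with an adjusted p of 0.0978 without *K-Ctrl* replicate 1.

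*Pecam1*, *Clec14a*, *Emcn* and *Esam* are the surface genes that were not called, and they were described after their values were seen. *Esam*, an adhesion molecule of endothelial junctions and platelets, was at 122, 79.5, 102 and 79.6 CPM in *K-Ctrl* replicates 1 to 4 and 113, 95.2, 81.0 and 90.2 CPM in *K-Setd2KO* replicates 1 to 4. The groups overlapped almost fully, and the log2 fold change of -0.01 ± 0.17 (SE, adjusted p = 0.969) changed sign under 6 alternatives, reaching at most 0.12. *Pecam1* was at 529, 153, 254 and 199 CPM for *K-Ctrl* and 175, 117, 74.3 and 65.7 CPM for *K-Setd2KO*, with *K-Setd2KO* replicate 1 above *K-Ctrl* replicate 2 (log2 fold change -1.39 ± 0.44 SE, adjusted p = 0.0699). *Clec14a* gave -2.03 ± 0.62 (SE, adjusted p = 0.0651) and *Emcn* -0.53 ± 0.36 (SE, adjusted p = 0.363). Leaving out *K-Ctrl* replicate 1 gave -0.90 for *Pecam1* and -1.19 for *Clec14a*.

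**Figure D3:**
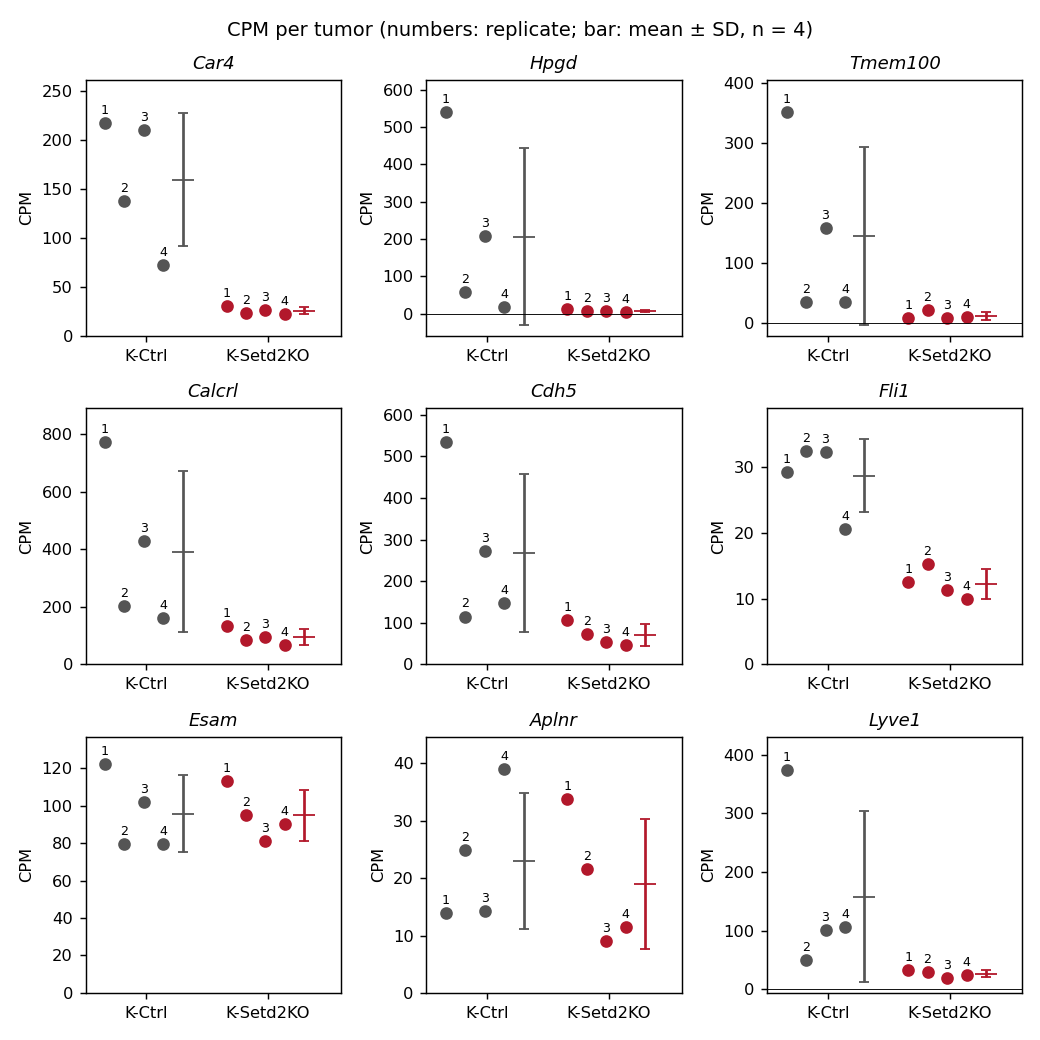
CPM per tumor of 9 endothelial genes (points, numbered by replicate) with the mean and SD of the 4 tumors of each group (bars). *Fli1* and *Car4* show groups that do not overlap, *Calcrl* and *Cdh5* show the high *K-Ctrl* replicate 1, and *Esam* and *Aplnr* show groups that overlap.

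Capillary enzymes and surface proteins gave 2 calls among 4. *Car4* (ENSMUSG00000000805.18, chromosome 11, 84957786 to 84966044, plus strand), the carbonic anhydrase on the gas-exchange capillary cells, was at 217, 138, 211 and 72.9 CPM in *K-Ctrl* replicates 1 to 4 and 30.3, 23.7, 26.5 and 22.9 CPM in *K-Setd2KO* replicates 1 to 4. The highest *K-Setd2KO* tumor was well under the lowest *K-Ctrl* tumor. *Car4* fell with a log2 fold change of -2.63 ± 0.32 (SE, adjusted p = 0.00560), a level 6.17-fold lower, and from -2.87 to -2.44 over the 8 fits that each left out 1 tumor. *Hpgd* (ENSMUSG00000031613.9, chromosome 8, 56294585 to 56321043, plus strand), which degrades prostaglandins and is also transcribed in epithelium, was at 542, 58.3, 207 and 18.9 CPM in *K-Ctrl* and 11.6, 7.94, 6.26 and 5.64 CPM across *K-Setd2KO*. The *K-Ctrl* tumors were spread widely, with replicate 1 far above replicate 4, yet each was above all *K-Setd2KO* tumors. *Hpgd* fell with a log2 fold change of -4.69 ± 0.96 (SE, adjusted p = 0.0181), the lowest value of the 38 genes, and of -3.58 without *K-Ctrl* replicate 1 (adjusted p = 0.0318). *Gpihbp1*, which carries lipoprotein lipase to the vessel lumen, was at 92.0, 15.8, 38.7 and 18.5 CPM for *K-Ctrl* and 17.8, 24.1, 16.6 and 5.12 CPM for *K-Setd2KO*. Its groups overlapped (log2 fold change -1.36 ± 0.62 SE, adjusted p = 0.175), as did those of *Plvap*, the protein of capillary diaphragms (log2 fold change -1.23 ± 0.45 SE, adjusted p = 0.106). The value of *Gpihbp1* was -0.61 with *K-Ctrl* replicate 1 left out.

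The 2 capillary markers named at the outset can be set side by side tumor by tumor. *K-Setd2KO* replicates 1 to 3 had *Gpihbp1* levels within the range of *K-Ctrl* replicates 2 to 4, while their *Car4* levels were below every *K-Ctrl* tumor. *K-Setd2KO* replicate 4 was below every *K-Ctrl* tumor for both genes, and *K-Ctrl* replicate 1 was the highest tumor for both. Whether the 2 fold changes differ was not tested. Each cell type stands on 1 gene here, so these levels do not tell the cell types apart. The capillary genes *Ednrb* and *Apln* overlapped between the groups, while *Kit*, carried by general capillary cells and mast cells, was called lower (log2 fold change -2.28).

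*Lyve1* (ENSMUSG00000030787.4, chromosome 7, 110850607 to 110863239, minus strand), a hyaluronan receptor of lymphatic endothelium that some macrophages also carry, was at 373, 50.8, 101 and 107 CPM in *K-Ctrl* replicates 1 to 4 and 32.7, 29.7, 19.6 and 24.9 CPM in *K-Setd2KO* replicates 1 to 4. The groups did not overlap, and *Lyve1* fell with a log2 fold change of -2.56 ± 0.57 (SE, adjusted p = 0.0230), and of -1.69 without *K-Ctrl* replicate 1 (adjusted p = 0.0181). *Prox1* (ENSMUSG00000010175.13, chromosome 1, 190118035 to 190170714, minus strand), the transcription factor that specifies lymphatic endothelium, was at 6.50, 4.27, 4.79 and 2.94 CPM in *K-Ctrl* and 1.28, 0.916, 1.57 and 0.342 CPM across *K-Setd2KO*. Its groups were apart, and it fell with a log2 fold change of -2.12 ± 0.45 (SE, adjusted p = 0.0183). It is the least abundant member and shares exonic positions with *Prox1os* on the opposite strand. *Vwf*, the clotting factor carrier of veins and large vessels that megakaryocytes also make, was at 252, 70.4, 137 and 84.0 CPM for *K-Ctrl* and 101, 71.4, 74.5 and 33.0 CPM for *K-Setd2KO*, with groups that overlapped (log2 fold change -0.96 ± 0.44 SE, adjusted p = 0.187). *Egfl7*, a secreted vessel protein whose exons overlap 4 other genes, was not called (log2 fold change -0.73 ± 0.46 SE, adjusted p = 0.327). With *K-Ctrl* replicate 1 left out, *Vwf* was at -0.48 and *Egfl7* at -0.34.

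Of the 6 transcription factors, 3 fell, counting *Prox1* described above. *Fli1* (ENSMUSG00000016087.13, chromosome 9, 32422204 to 32542861, minus strand), an ETS factor of endothelium that leukocytes and platelets share, was at 29.4, 32.4, 32.3 and 20.7 CPM in *K-Ctrl* replicates 1 to 4 and 12.5, 15.3, 11.3 and 9.91 CPM in *K-Setd2KO* replicates 1 to 4. The groups were apart and *K-Ctrl* replicate 1 did not exceed replicates 2 and 3. *Fli1* fell with a log2 fold change of -1.22 ± 0.20 (SE, adjusted p = 0.00881), and between -1.35 and -1.15 over the fits that each left out 1 tumor. *Erg* (chromosome 16, 95359169 to 95586593, minus strand), an ETS factor more restricted to endothelium, was at 83.1, 29.8, 46.8 and 21.7 CPM in *K-Ctrl* and 16.9, 19.1, 20.2 and 12.8 CPM across *K-Setd2KO*. It fell with a log2 fold change of -1.39 ± 0.39 (SE, adjusted p = 0.0467), which was -0.93 without *K-Ctrl* replicate 1 (adjusted p = 0.0835), and *K-Ctrl* replicate 4 was close above *K-Setd2KO* replicate 3. *Sox7* (log2 fold change -2.44 ± 0.69 SE, adjusted p = 0.0502) and *Sox18* (log2 fold change -0.49 ± 0.45 SE, adjusted p = 0.506), which act with *Sox17* in vessel identity, were not called, and with *K-Ctrl* replicate 1 left out *Sox7* was at -1.63 and *Sox18* at -0.10.

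ERG and FLI1 bind DNA through the ETS core GGAA. The promoters of the members were searched for the letters AGGAAG, a longer form that holds this core, on either strand (CTTCCT on the other). RefSeq promoters on GRCm38.p6 were matched for 19 of the 38 members, and the 250 bases before the start held the letters in 11 of those 19, beside 32.3% of 27025 genes. The letters ACAATG, a SOX core, were found in 3 of 19, beside 12.2%. The hypoxia response core ACGTG was found in 1 of 19, beside 18.5%. A match is a description of the letters and no evidence of binding. RefSeq starts can differ from the deposited gene coordinates. The window of *Calcrl* lies partly inside the gene as counted, its marked letters included, and the window of *Emcn* ends inside that gene. Promoters are printed below for *Car4* and *Hpgd*, the capillary genes that fell and were matched, for *Calcrl*, a general gene that fell, and for *Emcn*, a general gene that was not called, in lower case with AGGAAG or CTTCCT in capitals.
*Car4* (GRCm38.p6, chr11:84957504-84957753, plus strand): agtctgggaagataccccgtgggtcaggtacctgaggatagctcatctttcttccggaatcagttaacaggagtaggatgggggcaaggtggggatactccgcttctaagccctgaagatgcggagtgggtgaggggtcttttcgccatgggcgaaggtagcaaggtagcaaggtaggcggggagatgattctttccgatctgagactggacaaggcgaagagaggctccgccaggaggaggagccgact
*Hpgd* (GRCm38.p6, chr8:56294302-56294551, plus strand): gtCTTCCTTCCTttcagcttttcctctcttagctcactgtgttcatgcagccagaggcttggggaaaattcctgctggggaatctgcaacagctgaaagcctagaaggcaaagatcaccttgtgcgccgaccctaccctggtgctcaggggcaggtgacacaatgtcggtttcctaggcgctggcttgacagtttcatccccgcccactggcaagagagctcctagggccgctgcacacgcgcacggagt
*Calcrl* (GRCm38.p6, chr2:84425267-84425516, minus strand): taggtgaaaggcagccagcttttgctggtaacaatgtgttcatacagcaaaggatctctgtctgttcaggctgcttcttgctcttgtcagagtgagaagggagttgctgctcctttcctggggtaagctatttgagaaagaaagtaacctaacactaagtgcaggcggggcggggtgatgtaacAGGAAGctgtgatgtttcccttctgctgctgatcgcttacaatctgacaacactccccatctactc
*Emcn* (GRCm38.p6, chr3:137340828-137341077, plus strand): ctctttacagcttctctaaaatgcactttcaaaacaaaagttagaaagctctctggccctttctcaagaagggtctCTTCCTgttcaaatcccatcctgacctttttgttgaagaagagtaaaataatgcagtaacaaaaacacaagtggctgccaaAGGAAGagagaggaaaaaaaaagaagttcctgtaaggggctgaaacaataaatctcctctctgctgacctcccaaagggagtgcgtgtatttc
The letters occurred in the promoters of *Hpgd* and *Calcrl*, which fell, and of *Emcn*, which was not called, and not in this window of *Car4*. The window of *Car4* does hold the core GGAA beside other letters, which the search left unmarked.

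To contrast the vessel types, the level of each gene was divided by the summed level of the general genes in the same tumor, leaving out the gene itself. These ratios are descriptions without a test. Against the general genes, the capillary genes made up 27.8% in *K-Ctrl* and 16.7% in *K-Setd2KO*, a log2 difference of -0.73 with no overlap between the groups. The 3 called genes *Hpgd*, *Tmem100* and *Car4* together made up 17.4% and 5.12%, and the other 5 made up 10.3% and 11.6%, with overlap. The split was by the calls from these same tumors, so a lower share for the called genes was largely fixed in advance. The lymphatic genes made up 6.82% and 4.27%, a difference of -0.64, also without overlap. Most of that sum is *Lyve1*, at 5.58% and 3.00%, while *Flt4* differed by 0.18 and *Prox1* by -0.96, both with overlap. The arterial genes made up 1.98% and 2.60%, a difference of 0.40, and *Vwf* 5.30% and 7.57%, a difference of 0.47, both with overlap. These 4 differences were -0.70, -0.53, 0.29 and 0.44 without *K-Ctrl* replicate 1.

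Within the lists the members were uneven. *Hpgd* (-2.45), *Tmem100* (-1.75), *Car4* (-1.16) and *Lyve1* (-0.83) were lower against the general genes in every *K-Setd2KO* tumor than in any *K-Ctrl* tumor. *Esam* (1.46) and *Sox17* (0.83) were higher in this way, and the other 32 members overlapped. On this scale, in which the divisor itself was lower in *K-Setd2KO*, 0.656% of all genes tested lay lower without overlap and 44.9% higher, so that the 2 higher members are a smaller share than that of all genes. Without *K-Ctrl* replicate 1 these 6 differences were -2.06, -1.50, -1.36, -0.68, 1.18 and 0.70, in the same order. *Plvap* kept pace with the general genes (-0.01), as did *Pecam1* (0.03). Of the 8 capillary genes, *Hpgd*, *Tmem100* and *Car4* did not overlap, while the other 5 lay between -0.67 (*Ednrb*) and 1.02 (*Aplnr*, 0.43 without *K-Ctrl* replicate 1) and overlapped.

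**Figure D4:**
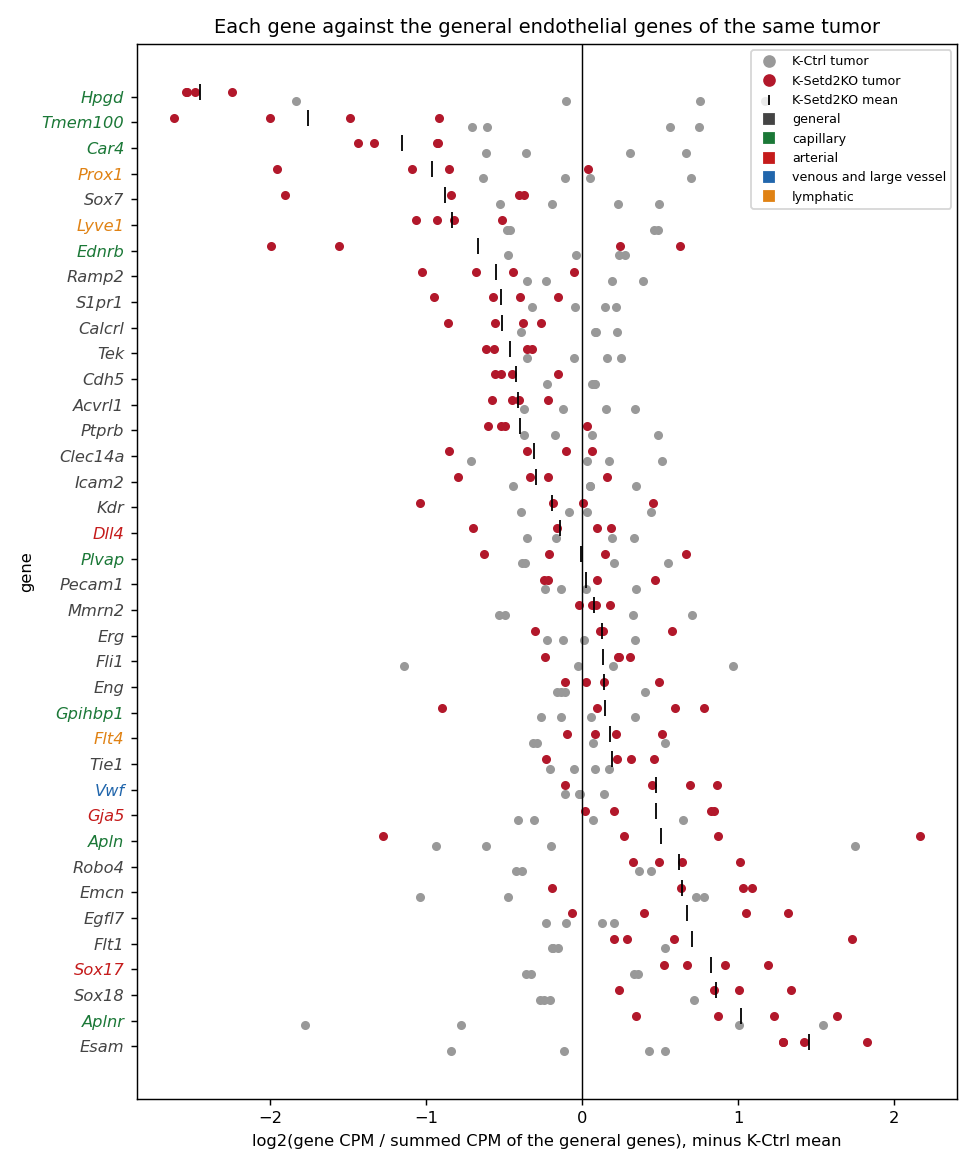
Log2 ratio of each gene to the summed CPM of the general genes in the same tumor, minus the *K-Ctrl* mean, for the 4 *K-Ctrl* tumors (grey), the 4 *K-Setd2KO* tumors (red) and the *K-Setd2KO* mean (black tick), with labels colored by vessel type. *Hpgd*, *Tmem100*, *Car4* and *Lyve1* lie left of all grey points, *Sox17* and *Esam* lie right of them, and the other 32 genes overlap.

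The members also varied together among tumors of one group. After the mean of each group was removed, 34 of the 38 genes had a Pearson correlation above 0.5 over the 8 tumors with the mean of the general genes, and 17 had one above 0.9. These counts were 34 and 8 without *K-Ctrl* replicate 1. The 4 genes under 0.5 over all tumors were *Emcn* (0.46), *Fli1* (0.45), *Apln* and *Aplnr*. Without that tumor they were *Flt1* (0.05, against 0.60 over all tumors), *Gja5* (0.16, against 0.72), *Apln* and *Aplnr*, while *Emcn* and *Fli1* stood at 0.60 and 0.59. *Fli1* was highest in *K-Ctrl* replicates 2 and 3, as was the summed leukocyte list, at 2154 and 2132 CPM there and 1362 and 1225 CPM in replicates 1 and 4. *Apln* and *Aplnr* were the 2 genes with a correlation below 0 over all tumors, at -0.14 and -0.15, and without *K-Ctrl* replicate 1 they were at -0.36 and 0.20. The points share the same 8 libraries, and these values are descriptions.

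The partners of these receptors were counted from a list of 42 ligands, co-receptors and downstream genes, of which 40 were tested. Of these, 5 were called lower and 1 higher, or 12.5% lower beside 7.74% of all genes and 1 of 40 higher beside 4.97%, and without *K-Ctrl* replicate 3 the 6 calls became 3. *Vegfa*, the ligand of KDR and FLT1, was at 771, 377, 623 and 402 CPM in *K-Ctrl* replicates 1 to 4 and 359, 886, 759 and 306 CPM in *K-Setd2KO* replicates 1 to 4, with full overlap (log2 fold change 0.09 ± 0.38 SE, adjusted p = 0.903). With 1 tumor left out it ran from -0.20 to 0.30. *Nrp2*, a co-receptor for VEGF-C and semaphorins, fell from 101 ± 6.18 CPM to 48.8 ± 1.48 CPM (log2 fold change -1.05 ± 0.10 SE, adjusted p = 0.00306). *Angpt1*, the activating ligand of TIE2 made mostly by mural and mesenchymal cells, fell from 34.3 ± 25.3 CPM to 7.05 ± 1.68 CPM (log2 fold change -2.29 ± 0.48 SE, adjusted p = 0.0192), and *Angpt2*, the antagonist that endothelium makes, was not called (log2 fold change -0.40 ± 0.39 SE, adjusted p = 0.535). *Nrp2* was called in each fit that left out 1 tumor, and *Angpt1* was at -1.68 without *K-Ctrl* replicate 1 (adjusted p = 0.0259) and lost its call without *K-Ctrl* replicate 3 or *K-Setd2KO* replicate 3.

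Among the other partners, the endothelin receptor gene *Ednra* (log2 fold change -1.38 ± 0.31 SE, adjusted p = 0.0232) and the guidance ligands *Slit2* (log2 fold change -1.81 ± 0.30 SE, adjusted p = 0.00932) and *Slit3* (log2 fold change -1.73 ± 0.29 SE, adjusted p = 0.00974) fell. *Hes1*, a target of Notch signaling in many cell types, rose (log2 fold change 0.72 ± 0.16 SE, adjusted p = 0.0229). *Slit2* and *Slit3* were called in each fit that left out 1 tumor, while without *K-Ctrl* replicate 1 *Ednra* was at -1.14 (adjusted p = 0.0592) and *Hes1* at 0.72 (adjusted p = 0.0593). *Ednra* also lost its call without *K-Ctrl* replicate 3 or *K-Setd2KO* replicate 4, and *Hes1* without *K-Ctrl* replicate 2 or 3 or *K-Setd2KO* replicate 3. The ALK1 ligand genes *Gdf2* and *Bmp10* were too low to test, with *Bmp10* at 0 in all 8 tumors, and the 7 tested partners of the ALK1 list had adjusted p from 0.101 (*Bmpr2*) to 0.971 (*Id3*), 4 of them being fitted above 0. Among these 4 was *Id1*, a target of BMP signaling, higher without overlap of the groups (log2 fold change 0.63, edgeR adjusted p = 0.113). Of 30 further endothelial genes, 28 were tested and 9 were called lower, beside 7.74% of all genes, with a median log2 fold change of -1.25. Of the 28, 26 were fitted below 0, beside 47.3% of all genes. The 9 calls became 5 without *K-Ctrl* replicate 1 and 3 without *K-Ctrl* replicate 3, *K-Setd2KO* replicate 3 or *K-Setd2KO* replicate 4. In these fits 4.46%, 3.60%, 4.14% and 5.67% of all genes were called lower, in the same order.

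Genes of other cells moved between the groups as well, and their part in these results was not tested. Beside the counts below, 7.74% of all genes tested were called lower and 4.97% higher. The leukocyte list had 8 of 10 genes called lower, with summed levels of 1225 to 2154 CPM for *K-Ctrl* and 644 to 837 CPM for *K-Setd2KO*, and the macrophage list 5 of 10, with 685 to 1829.8 and 240.3 to 479 CPM. The fibroblast list had 4 of 10 called lower (626 to 1194 and 147 to 621 CPM) and the alveolar type 1 list 2 of 8 (2767 to 5632 and 1663 to 3018 CPM). The pericyte and smooth muscle list had 1 of 10 called, *Rgs5*, which was higher, while the other 9 were fitted below 0 and the list's median was -0.86 (188 to 312 and 168 to 263 CPM). The epithelial list had 3 of 12 called, all higher (33030.5 to 48470.3 and 42557 to 52401 CPM). Erythroid genes, with adjusted p from 0.0590 (*Alas2*) to 0.152 (*Hbb-bt*) over 5 genes tested, ran from 150.2 to 805 CPM in *K-Ctrl*, highest in replicate 1, and from 76.3 to 202 CPM in *K-Setd2KO*.

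Some members are made by these cells too, and 8 of the 38 were set apart for that reason. Those 8 (*Pecam1*, *Fli1*, *Icam2*, *S1pr1*, *Lyve1*, *Eng*, *Hpgd* and *Vwf*) held 5 calls, with a median of -1.64, and the other 30, among them *Esam*, which platelets also make, held 11, with a median of -1.38. The platelet genes *Gp9*, *Gp1bb*, *Gp6* and *Treml1* were too low to test, with *Gp9*, *Gp1bb* and *Gp6* at 0 in all *K-Setd2KO* tumors, and the 4 platelet genes tested had adjusted p from 0.0736 (*Pf4*) to 0.869 (*Itga2b*). Of those 4, 3 were fitted above 0, *Pf4* at 2.91 and *Gp1ba* at 1.82 among them, and *Ppbp* was at -2.52. The list's summed level was 7.13 to 16.9 CPM in *K-Ctrl* and 10.5 to 130.5 CPM in *K-Setd2KO*, highest in replicate 4.

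**Figure D5:**
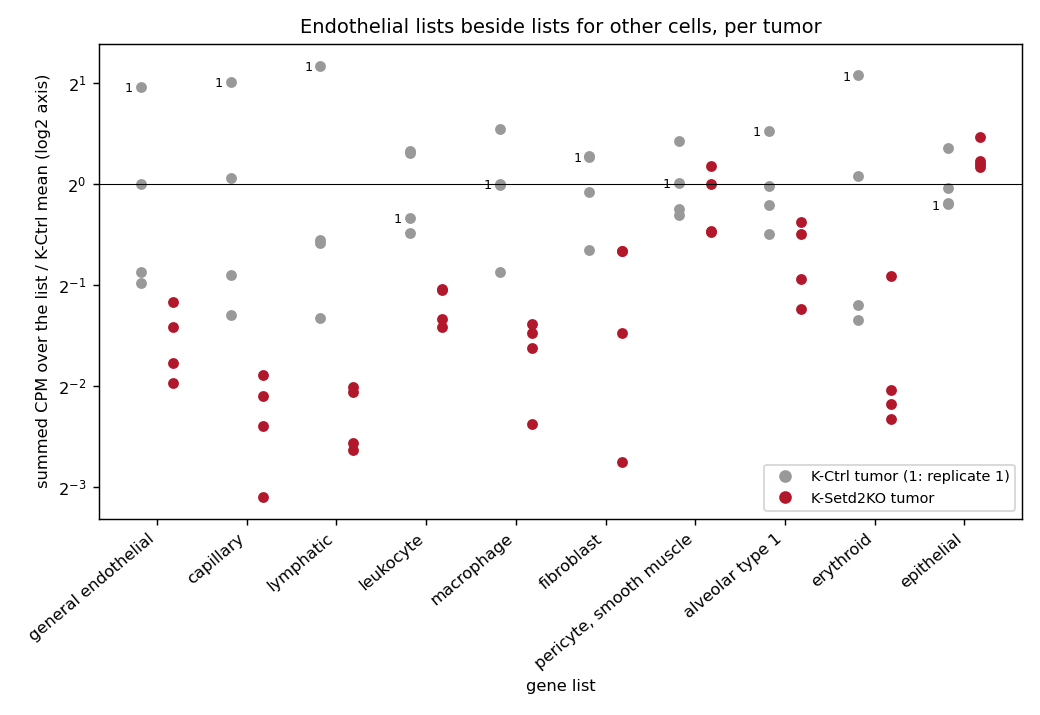
Summed CPM of 3 endothelial lists and 7 lists for other cells in each tumor, divided by the *K-Ctrl* mean, on a log2 axis (grey, *K-Ctrl*, with replicate 1 marked; red, *K-Setd2KO*). *K-Ctrl* replicate 1 is the highest tumor for the 3 endothelial lists and the alveolar type 1 and erythroid lists, and the *K-Setd2KO* tumors lie below all *K-Ctrl* tumors for the 3 endothelial lists and the leukocyte, macrophage and fibroblast lists.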

How the data were processed

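The authors deposited 1 table of raw read counts per gene (whole numbers, not normalized) with 1 column for each of the 8 tumors, exon coordinates on GRCm38 and exon lengths. The submitters' processing notes name STAR 2.5.2b, featureCounts 1.5.0-p1 and GRCm38.p4, and their roles, the annotation and the strand setting are not given in the sources used here. Libraries were made with a stranded poly(A) kit. Gene symbols came from GENCODE M21 (GRCm38), which matched 48349 of 48709 identifiers (99.26%), and 20284 genes had 0 counts in all tumors. Coordinates are those of the table, 1-based.

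Counts were tested in R 4.3.3 with edgeR 4.0.16 (filterByExpr, TMM factors, robust quasi-likelihood fit, with genotype as the single term), the p-values of the 14929 genes kept being adjusted by Benjamini-Hochberg, with a threshold of 0.05. For standard errors, the size of the log2 fold change was divided by the root of its F value. CPM used TMM-scaled library sizes and RPKM the deposited exon length. The study compared the genotypes with DESeq2. DESeq2 1.42.0, limma voom 3.58.1, other size factors and filters, a sex term, a replicate block and leaving out each tumor were alternatives. The test recovered 149 of 200 genes changed in simulated counts for the comparison of *K-Setd2KO* with *K-Ctrl* over 14929 genes, with 8 false calls. In it all changed genes had the same size of change, larger than that of the members' median of -1.39, and genes were drawn independently. The members vary together, so these counts do not give the recovery for them. Totals of 5806599 to 21290402 counts set the precision, and 3 counts were taken as the limit of a 0, for counting error only.

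The members and all gene lists were chosen with earlier results of these data known. Values per tumor are given for the gene of highest RPKM and the gene of smallest p in each group by role, and for *Car4*, *Gpihbp1*, *Gja5*, *Dll4*, *Sox17*, *Vwf*, *Lyve1*, *Prox1* and *Flt4*. Partner genes are named where called, at most 3 per list, with *Vegfa*. Other genes were named after their values were seen. One allele that the mice of both groups carry is not reported here.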

Additional observations from a re-analysis of the deposited data

Results flagged for a closer look

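In each group of 4 tumors, the highest and the lowest CPM of every member were set against the rest of the group by Dixon's criterion, and 3 of 76 groups held a tumor set apart, where chance gives about 1 in 20, or 3.8. *Robo4* in *K-Ctrl* replicate 1 was at 26.4 CPM, with the other 3 tumors between 11.8 and 13.8 CPM. *Dll4* in *K-Ctrl* replicate 1 was at 32.0 CPM, with the others between 11.5 and 14.4 CPM. *Tmem100* in *K-Setd2KO* replicate 2 was at 21.2 CPM, with the others between 7.79 and 9.73 CPM.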

How the results depend on the processing

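The direction of the members' median held under all alternatives run, from -1.62 to -1.03, while the counts of calls moved. Against 16 members called, 5 were called with no filter on low counts, 26 with DESeq2, 8 with limma voom, 3 with a sex term and 3 to 21 when 1 tumor was left out, while 7.74% of all genes tested were called lower, and 3.55%, 12.5%, 7.21%, 5.25% and 3.60% to 8.31% in these fits. For the general genes (10 called) these counts were 2, 17, 5, 1 and 1 to 13. For the capillary genes (3 called) the count was 1 with no filter, with limma voom and with the sex term, and 1 to 3 with a tumor left out. With DESeq2 the 3 kept their call and *Plvap* gained it. The arterial count of 1 became 2 under a minimum of 10 counts per tumor and under DESeq2, 0 with limma voom and with the sex term, and 0 to 2 with a tumor left out. The lymphatic count of 2 became 1 with no filter and with the sex term, and 1 to 3 with a tumor left out. With DESeq2 and with the replicate block, *Flt4* was called beside *Lyve1* and *Prox1*. The members called with DESeq2 but not in the main fit were *Pecam1*, *Kdr*, *Flt4*, *Tie1*, *Eng*, *Sox7*, *Plvap*, *Clec14a*, *Ramp2* and *Gja5*. The 6 partner genes called became 13 with DESeq2 and 3 to 9 with a tumor left out. The 9 further endothelial genes called became 4 with no filter, 17 with DESeq2, 4 with limma voom, 2 with the sex term and 3 to 13 with a tumor left out. *Esam* turned to 0.0027 with limma voom and 0.0023 with the sex term and ranged from -0.11 to 0.12 with a tumor left out, and *Aplnr* ranged from -0.70 to 0.11. Over single members, 302 values were recomputed with all tumors kept, of which 243 kept their call and direction, 36 lost and 21 gained the call and 2 changed sign, and of 304 with a tumor left out these counts were 228, 61, 10 and 5. Why these counts of calls moved was not tested. With the replicate number as a block, 18 members and 1341 of all genes were called, against 1897 without it. Deviations of same-numbered tumors correlated at -0.07, -0.03, 0.19 and -0.02, so the numbers were not taken to pair the tumors. *Sox7* and *Prox1* were not tested under the minimum of 10 counts. Over all genes tested, the count called was 3194 with DESeq2, 763 without *K-Ctrl* replicate 3, 938 without *K-Ctrl* replicate 1, 1126 without *K-Ctrl* replicate 2, 1011 without *K-Setd2KO* replicate 3 and 1237 with the sex term. Depth limits *Prox1*, at 2 to 106 counts per tumor, more than the other members.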

Other observations

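Genes outside the 38 members whose levels followed the general endothelial genes most closely were taken by Pearson correlation over the 8 tumors with the mean log2 CPM of the general genes, after the mean of each group was removed. The 10 highest were *Notch4*, *Lipg*, *6430548M08Rik*, *Arap3*, *Gata2*, *Heg1*, *Ripply3*, *Ackr2*, *Plod1* and *Adgrl4*, from 0.999 for *Notch4* to 0.981 for *Adgrl4*. *Gata2* and *Adgrl4* are on the list of further endothelial genes and *Notch4* is on that of Notch partners. Without *K-Ctrl* replicate 1 they ranked between 1 and 21 among all genes tested outside the list. *Notch4*, an endothelial Notch receptor, gave a log2 fold change of -1.42 (adjusted p = 0.0678, edgeR), and of -0.89 without *K-Ctrl* replicate 1. *Gata2*, a transcription factor of endothelium and blood progenitors, was called lower (-2.28, adjusted p = 0.0483), with -1.41 without *K-Ctrl* replicate 1 (adjusted p = 0.0914), and it kept the call in 2 of the 8 fits that left out 1 tumor. The genes share the 8 libraries, and these correlations are descriptions.

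Further endothelial genes that were called lower include *Prx* (-2.86, adjusted p = 0.0227), *Foxf1* (-2.44, adjusted p = 0.0276), a transcription factor of lung mesenchyme and capillaries, *Kit* (-2.28, adjusted p = 0.0157), carried by general capillary cells and mast cells, and *Cd93* (-1.79, adjusted p = 0.0134), a binding partner of MMRN2. *Kit* and *Cd93* were called in each of the 8 fits that left out 1 tumor, *Prx* in 5 and *Foxf1* in 3, and without *K-Ctrl* replicate 1 *Prx* was at -2.15 (adjusted p = 0.0387) while *Foxf1* lost its call (adjusted p = 0.0649). The pericyte gene *Rgs5* was higher, at 19.3, 52.3, 27.7 and 47.4 CPM in *K-Ctrl* replicates 1 to 4 and 89.5, 122, 104 and 50.7 CPM in *K-Setd2KO* replicates 1 to 4 (log2 fold change 1.32, adjusted p = 0.0430), and it kept the call in 3 of these 8 fits, with values from 1.11 to 1.54. *K-Setd2KO* replicate 4 lay within the *K-Ctrl* range, and the other 9 genes of the pericyte and smooth muscle list were fitted below 0 and were not called, among them *Cnn1* (-2.12) and *Myh11* (-1.51). These genes were named after their values were seen.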
